A study of Mus musculus with 12 samples.

Results

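The S100 genes encode small calcium-binding proteins, and 8 of them were followed here through the bone marrow of mice with a leukaemia-like disease. The 8 genes, S100a1, S100a4, S100a6, S100a8, S100a9, S100a10, S100a11 and S100a13, were taken by symbol from a table of raw read counts that lists 56350 genes. All 8 had enough counts to be tested, among 17475 genes that did. RNA was sequenced from bone marrow cells of 12 mice of genotype Shp2E76K/+;LysM-Cre+ on a C57BL/6 background, about 12 to 14 weeks old and of both sexes. Shp2 is the phosphatase encoded by Ptpn11, and its E76K form is an activating change found in juvenile myelomonocytic leukaemia (JMML). LysM-Cre drives recombination from the Lyz2 locus in myeloid cells, so marrow cells of other lineages need not carry the mutant protein. The mice fell into 4 groups of 3: vehicle, PD-901 (PD0325901, an inhibitor of the kinase MEK, 5 mg/kg by mouth, 20 doses in 4 weeks), 5-azacitidine (a nucleoside drug that depletes DNA methyltransferases, 5 mg/kg into the peritoneum, 5 doses in 4 weeks) and the combination of both schedules. All 12 mice carried the mutation and the Cre, and no group without them was analysed here.

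S100 proteins form dimers, bind calcium through EF-hand motifs and then expose a surface that grips partner proteins, among them annexins, myosin and cell surface receptors. S100A8 and S100A9 pair as calprotectin, which fills the cytosol of neutrophils and, to a lesser degree, monocytes. Released from these cells, calprotectin withholds zinc and manganese from microbes and acts as an alarm signal through TLR4 and RAGE (encoded by Ager). S100A6, S100A10 and S100A11 work mostly inside the cell with annexins at membranes.

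All 8 genes lie on mouse chromosome 3 (build mm10) in 2 blocks of 184.7 kb and 44.2 kb, separated by 2824.8 kb. The first block holds S100a1 (90511034 to 90514392, minus strand), S100a13 (90514435 to 90524581, plus), S100a4 (90603771 to 90606045, plus), S100a6 (90612882 to 90624181, plus), S100a8 (90668978 to 90670035, plus) and S100a9 (90692632 to 90695721, minus). The other block holds S100a11 (93520488 to 93526287, plus) and S100a10 (93555080 to 93564643, plus). S100a8 and S100a9 are 22.6 kb apart. S100a1 and S100a13 point away from each other with their first bases 43 bases apart.

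The promoters of the 4 genes that the results turn on are shown because these genes varied together across the 12 libraries. Each run is 300 bases from RefSeq (GRCm38.p6), 250 before and 50 from the annotated start, read 5′ to 3′ on the strand of the gene. Capitals mark the letters TTGCNNAA, a C/EBP core on either strand, and GAGGAA or its reverse complement TTCCTC, a PU.1 core. C/EBP factors and PU.1 are regulators of myeloid genes.
S100a8 (chr3:90668821-90669120, plus strand): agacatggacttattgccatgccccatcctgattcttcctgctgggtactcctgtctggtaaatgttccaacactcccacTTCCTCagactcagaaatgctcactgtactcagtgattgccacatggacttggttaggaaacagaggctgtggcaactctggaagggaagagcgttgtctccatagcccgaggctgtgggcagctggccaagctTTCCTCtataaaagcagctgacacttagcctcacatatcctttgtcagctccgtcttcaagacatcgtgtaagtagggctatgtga
S100a9 (chr3:90695672-90695971, minus strand): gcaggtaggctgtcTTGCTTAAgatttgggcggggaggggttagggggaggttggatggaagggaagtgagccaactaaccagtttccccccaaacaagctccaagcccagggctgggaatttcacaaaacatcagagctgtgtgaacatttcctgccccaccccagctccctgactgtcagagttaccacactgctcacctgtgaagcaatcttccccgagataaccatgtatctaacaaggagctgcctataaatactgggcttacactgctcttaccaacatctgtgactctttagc
S100a6 (chr3:90612644-90612943, plus strand): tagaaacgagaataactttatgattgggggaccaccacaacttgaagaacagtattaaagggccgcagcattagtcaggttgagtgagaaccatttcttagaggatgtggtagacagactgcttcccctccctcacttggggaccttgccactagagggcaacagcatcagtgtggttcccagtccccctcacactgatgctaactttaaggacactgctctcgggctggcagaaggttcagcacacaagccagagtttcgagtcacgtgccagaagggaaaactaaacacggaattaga
S100a11 (chr3:93520246-93520545, plus strand): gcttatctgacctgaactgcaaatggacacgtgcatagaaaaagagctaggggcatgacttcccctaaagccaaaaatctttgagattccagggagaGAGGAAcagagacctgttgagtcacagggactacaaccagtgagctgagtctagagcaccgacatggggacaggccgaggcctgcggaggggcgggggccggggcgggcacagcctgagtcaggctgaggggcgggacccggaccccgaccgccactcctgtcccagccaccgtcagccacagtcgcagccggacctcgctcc

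The S100a8 window held TTCCTC at bases 81 to 86 and 215 to 220, counted from the 5′ end of the window. The S100a9 window held TTGCTTAA at bases 15 to 22, and the S100a11 window held GAGGAA at bases 98 to 103. None of these letters occurred in the S100a6 window. A window of the same length matched TTGCNNAA in 10.8% and GAGGAA or TTCCTC in 28.3% of 32851 mouse promoters, so such matches are common. CG dinucleotides, the sites where 5-azacitidine lowers methylation, numbered 4 in the S100a8 window, 2 in S100a9, 6 in S100a6 and 15 in S100a11, against a median of 7 over all windows. Among the other members with a window, S100a13 had 14, S100a1 had 11 and S100a4 had 2 CG dinucleotides. S100a4 held TTCCTC at bases 270 to 275, and S100a1 and S100a13 held neither motif. Methylation was not measured here, and motif matches describe letters only.

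The libraries held 15356919 to 27148190 counts each, and neutrophil, erythroid and B cell markers of bone marrow were all detected. Vehicle replicates 1 and 2 and combination replicates 1 and 2 stood apart, with Lyz2 at 44.9 to 172 CPM (counts scaled to library size) against 699.6 to 4182 CPM in the 8 others. Xist, which marks female cells, was over 100 CPM in all 3 libraries of vehicle, in 2 of PD-901, in 1 of 5-azacitidine and in 0 of the combination, so sex leaned with treatment although the labels describe sex-matched mice. Within the vehicle and combination mice alone, sex as read from Xist and treatment cannot be told apart. In bulk RNA, fewer cells of a type and less RNA per cell cannot be told apart.

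The levels of the 8 genes spanned a wide range. Compared per length as RPKM (CPM per kilobase of exon, mean over the 12 libraries), S100a9 stood at 21283 and ranked 1 among all 56350 genes. S100a8 followed at 6900 RPKM and rank 3. S100a11 reached 1195 RPKM (rank 24) and S100a6 reached 367 RPKM (rank 106). S100a10 at 74.1, S100a13 at 37.0 and S100a1 at 27.7 RPKM were moderate, and S100a4 was the lowest of the 8 at 1.99 RPKM (rank 10336). S100a9 was above S100a8 and S100a8 above S100a11 in all 12 libraries. S100a13 and S100a1, neighbours in this order, overlapped in their ranges, at 24.6 to 50.8 and 18.8 to 42.4 RPKM.

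**Figure D1:**
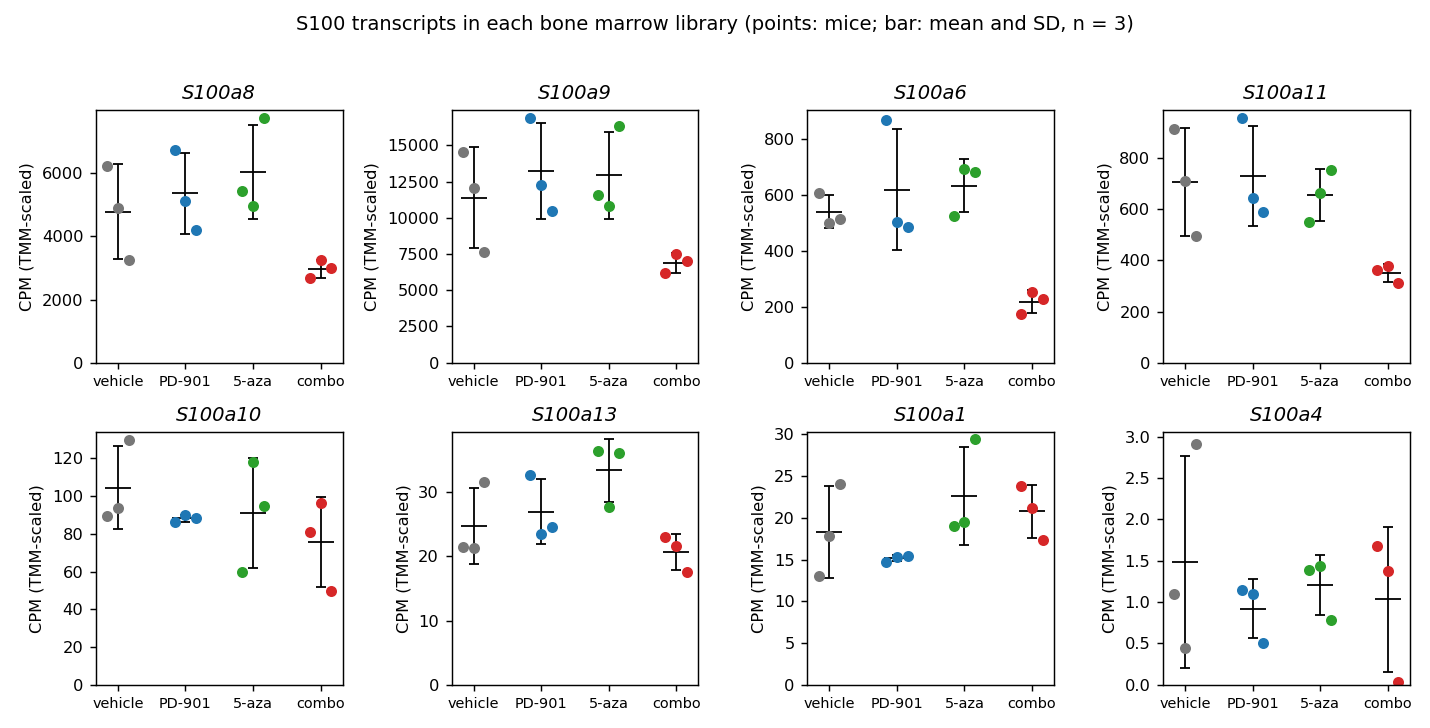
Level of each S100 gene in CPM (vertical axis, linear from 0) in the 4 treatment groups (horizontal axis). Points are mice and bars give the mean and SD (n = 3). The 3 combination mice sit at 175 to 253 CPM for S100a6 and 313 to 379.8 CPM for S100a11, below all 9 other mice in both panels.

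S100a9, the larger partner of calprotectin, was counted at 14526, 12064 and 7617 CPM in the vehicle mice and at 16901, 12289 and 10456 CPM in the PD-901 mice. It stood at 11596, 10850.5 and 16347 CPM with 5-azacitidine and at 6173, 7495 and 7004 CPM with the combination. The 3 combination libraries were the lowest of the 12, and the lowest vehicle library, replicate 3, lay just above them. Group means were 11402 ± 3502 CPM for vehicle and 6891 ± 668 CPM for the combination (SD, n = 3). The log2 change of -0.73 ± 0.24 (SE) missed the threshold of 0.05 in edgeR's quasi-likelihood test (adjusted p = 0.0564).

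S100a8, its partner, was counted at 6227, 4892 and 3239 CPM in the vehicle mice, 6743, 5131 and 4201 CPM with PD-901, and 5423, 4951 and 7743 CPM with 5-azacitidine. With the combination it stood at 2671, 3257 and 2983 CPM. Here vehicle replicate 3 fell within the combination range, while all 6 single-agent libraries lay above it. The change against vehicle was -0.69 ± 0.24 on the log2 scale (edgeR adjusted p = 0.0677). Without vehicle replicate 3 both passed, at -0.91 (adjusted p = 0.0185) for S100a8 and -0.95 (adjusted p = 0.0148) for S100a9. S100a9 also passed without 5-azacitidine replicate 3 (-0.72, adjusted p = 0.0460). DESeq2 called both (adjusted p = 0.0153 and 0.00937), and limma-voom called neither. In the 12 edgeR fits without 1 library, S100a8 missed the threshold in 11 and S100a9 in 10. Their changes there were as small as -0.44 and -0.50, and adjusted p values reached 0.327 and 0.265. With a sex term taken from Xist, edgeR gave adjusted p values of 0.0880 and 0.0805.

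S100a8 and S100a9 together took 1.60 ± 0.443% of all counts with vehicle, 1.81 ± 0.352% with PD-901, 1.82 ± 0.365% with 5-azacitidine and 1.04 ± 0.0876% with the combination (SD, n = 3). Their sum ranged from 0.943% to 2.23% over the 12 mice, while their ratio stayed between 2.81 and 3.33. The RPKM of S100a9 over that of S100a8 was 3.10, 3.28 and 3.13 in the vehicle mice and 3.33, 3.18 and 3.31 with PD-901. It was 3.07, 3.06 and 3.12 with the combination. The 5-azacitidine mice had ratios of 2.84, 2.91 and 2.81, below all 9 others. This difference was seen after the ratios were computed and was given no test.

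**Figure D2:**
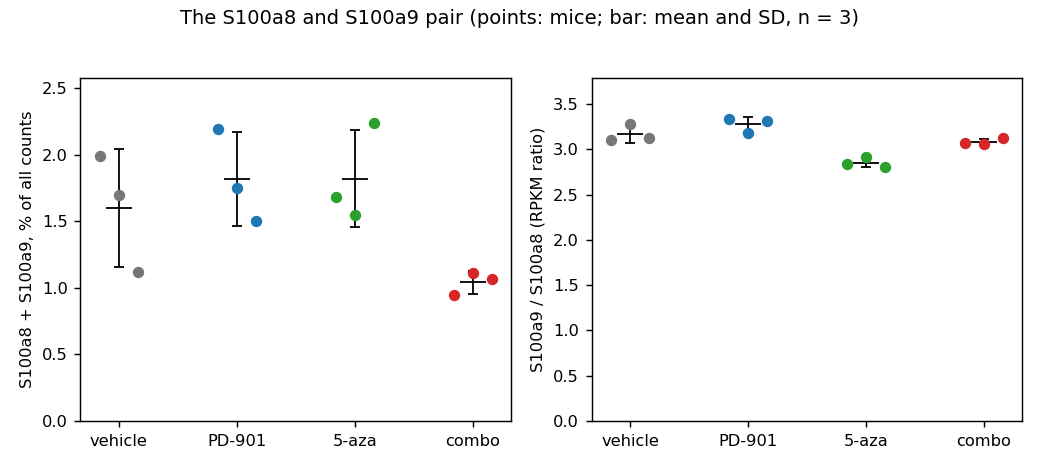
Left, S100a8 and S100a9 summed as a percentage of all counts. Right, the RPKM of S100a9 divided by that of S100a8, both from 0, with points for mice and bars for the mean and SD (n = 3). The sum was 1.04 ± 0.0876% with the combination, and the ratio was lowest in the 5-azacitidine mice at 2.81 to 2.91.

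S100a6 (calcyclin), which binds annexins and adaptor proteins of ubiquitin ligases, had the largest change of the 8 genes against vehicle over all 12 libraries. Its level was 608, 499 and 513 CPM in the vehicle mice, 868, 503 and 484 CPM with PD-901, and 524, 691 and 683 CPM with 5-azacitidine. In the combination mice it was 175, 253 and 227 CPM. The highest combination library lay well below the lowest of the 9 others. S100a6 fell 2.47-fold against vehicle, from 539.8 ± 59.2 to 218 ± 39.8 CPM (SD, n = 3), a log2 change of -1.31 ± 0.21 with an edgeR adjusted p of 0.0033. Leaving out any 1 of the 12 libraries kept this call, with adjusted p values from 0.00121 to 0.0232.

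S100a11, which pairs with annexin A1 at membranes, was counted at 915, 709 and 496 CPM in the vehicle mice and 955, 645 and 589 CPM with PD-901. It stood at 551, 664 and 752 CPM with 5-azacitidine and at 361, 379.8 and 313 CPM with the combination. The combination mice were again the lowest of the 12. S100a11 fell 2.01-fold against vehicle, from 707 ± 209.6 to 351 ± 34.4 CPM (SD, n = 3), a log2 change of -1.01 ± 0.22 with an edgeR adjusted p of 0.00895. The call was lost without vehicle replicate 1, at -0.76 (adjusted p = 0.0517).

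S100a10 (p11), which binds annexin A2 and has lost the ability to bind calcium, stood at 89.6, 93.9 and 129.8 CPM in the vehicle mice and 81.1, 96.5 and 49.5 CPM with the combination. It stood at 86.1, 89.8 and 88.4 CPM with PD-901 and 59.9, 118 and 94.7 CPM with 5-azacitidine. The groups overlapped, and the change against vehicle was -0.47 ± 0.25 on the log2 scale (edgeR adjusted p = 0.252).

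S100a13, which takes part in the export of FGF1 and interleukin-1 alpha, stood at 21.4, 21.3 and 31.5 CPM in the vehicle mice and 23.0, 21.6 and 17.6 CPM with the combination. It stood at 32.7, 23.5 and 24.6 CPM with PD-901 and 36.3, 27.7 and 36.1 CPM with 5-azacitidine. The combination libraries overlapped those of vehicle but lay below all 6 single-agent libraries. Its divergent neighbour S100a1, best known as a regulator of calcium handling in heart muscle, stood at 13.03, 17.8 and 24.1 CPM with vehicle, 14.8, 15.3 and 15.5 CPM with PD-901, 19.0, 19.5 and 29.4 CPM with 5-azacitidine and 23.8, 21.2 and 17.4 CPM with the combination. All 3 PD-901 libraries of S100a1 lay below every 5-azacitidine and combination library, without a call in either comparison (edgeR adjusted p = 0.628 and 0.287; such separation held for 6.55% and 12.7% of all genes).

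S100a4, a partner of non-muscle myosin, was scarce, with raw counts of 20, 9 and 69 in the vehicle mice, 29, 18 and 14 with PD-901, 21, 23 and 17 with 5-azacitidine, and 33, 27 and 1 with the combination. Its groups overlapped throughout, and the change of -0.54 ± 0.91 against vehicle had an SE larger than itself (edgeR adjusted p = 0.782). Of its 584 exon bases, 302 (51.7%) are shared on the same strand with the gene model Gm42674 (90601904 to 90605885). Reads there may have been left uncounted, so the level of S100a4 is uncertain. No other member shares exon bases with another gene.

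Against vehicle, then, 2 of the 8 genes fell with the combination, S100a6 and S100a11, and 0 rose. Among all tested genes 7.97% were called lower and 5.78% higher in this comparison. The median log2 change was -0.61 over the 8 genes and 0.01 over all genes, and 7 of the 8 changes were negative, S100a1 being the exception. Every combination library lay below every vehicle library for 3 of the 8 genes (S100a6, S100a9 and S100a11), against 15.9% of all genes. Without the 4 libraries low in Lyz2, which leaves 1 vehicle and 1 combination mouse assumed to vary like the other groups, S100a6 stood at -1.18 (edgeR adjusted p = 0.133) and S100a11 at -0.66 (adjusted p = 0.388). S100a8 and S100a9 were then both at -0.12, and S100a10 (-1.39, adjusted p = 0.0402) and S100a4 (-6.01, adjusted p = 0.0496) passed in their place. S100a4 there rests on 1 count in the remaining combination mouse. With sex as a term, taken from Xist, the changes of S100a6 (-1.62, adjusted p = 0.0563) and S100a11 (-1.31, adjusted p = 0.0638) were larger but no longer passed.

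**Figure D3:**
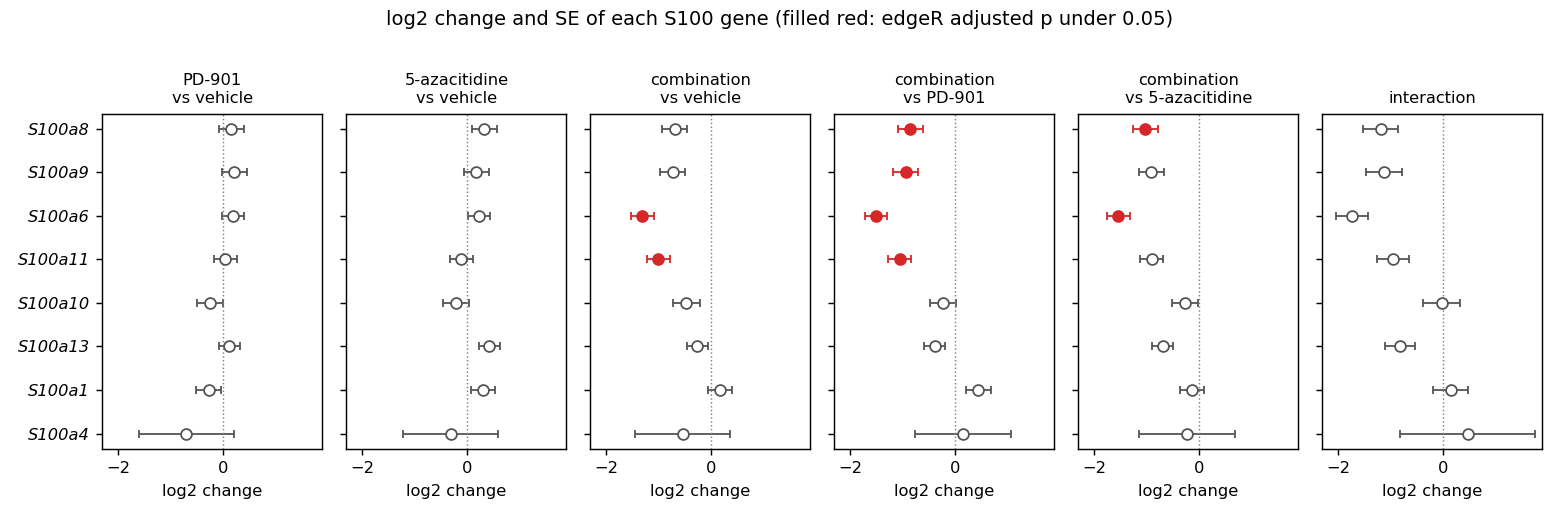
The log2 change (horizontal axis) and SE of each S100 gene in the treatment comparisons and the interaction, from edgeR. Filled red points had an adjusted p under 0.05: S100a6 and S100a11 against vehicle, S100a6, S100a8, S100a9 and S100a11 against PD-901, and S100a6 and S100a8 against 5-azacitidine, all on the lower side in the combination.

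The combination was next set against PD-901 alone, which asks what 5-azacitidine adds to the MEK inhibitor. Here 4 of the 8 genes fell and 0 rose, against 5.12% lower and 1.69% higher among all genes. S100a6 fell 2.83-fold (log2 change -1.50 ± 0.22, edgeR adjusted p = 0.00223) and S100a11 fell 2.08-fold (-1.05 ± 0.22, adjusted p = 0.0102). The calprotectin genes also passed here, S100a9 falling 1.92-fold (-0.94 ± 0.24, adjusted p = 0.0301) and S100a8 1.80-fold (-0.85 ± 0.24, adjusted p = 0.0442). Combination libraries lay below all PD-901 libraries for 5 of the 8 genes (S100a6, S100a8, S100a9, S100a11 and S100a13; 15.0% of all genes) and above them for S100a1 (12.7%). The median was -0.62 over the 8 genes and 0.01 over all genes.

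S100a6 kept its call against PD-901 without any 1 library, and the other 3 did not. S100a11 lost it without PD-901 replicate 1 (-0.81, edgeR adjusted p = 0.0655) or combination replicate 3 (-0.98, adjusted p = 0.0544). S100a9 lost it without PD-901 replicate 1 (-0.72, adjusted p = 0.169), PD-901 replicate 2 (-0.99, adjusted p = 0.0564), combination replicate 1 (-0.87, adjusted p = 0.119) or combination replicate 3 (-0.95, adjusted p = 0.0900). S100a8 lost it without the same 4 libraries or vehicle replicate 2, at -0.65 to -0.88 (adjusted p 0.0677 to 0.224). Without the 4 libraries low in Lyz2, S100a6 (-1.46, adjusted p = 0.0329) and S100a11 (-1.23, adjusted p = 0.0216) passed, while S100a8 (-0.85, adjusted p = 0.149) and S100a9 (-0.93, adjusted p = 0.113) kept their size and did not. With the sex term all 4 stayed past the threshold, with adjusted p values of 0.00787 for S100a6, 0.0294 for S100a8, 0.0217 for S100a9 and 0.0186 for S100a11.

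Against 5-azacitidine alone, which asks what the MEK inhibitor adds, 2 of the 8 genes fell and 0 rose, against 1.07% lower and 0.252% higher among all genes. That background was itself unsteady: leaving out 1 library moved the 187 lower calls over all genes to between 0 and 535, and the 44 higher calls to between 0 and 200. S100a6 fell 2.90-fold (log2 change -1.54 ± 0.22, edgeR adjusted p = 0.025) and S100a8 fell 2.03-fold (-1.02 ± 0.24, adjusted p = 0.0498). S100a9 (-0.91 ± 0.24, adjusted p = 0.0753), S100a11 (-0.90 ± 0.22, adjusted p = 0.0553) and S100a13 (-0.69 ± 0.20, adjusted p = 0.102) missed the threshold, although for these 3 as for S100a6 and S100a8, 5 genes in all, no combination library reached any 5-azacitidine library (9.54% of all genes). All 8 changes were negative, with a median of -0.79 against 0.00 over all genes. S100a6 lost its call without 5-azacitidine replicate 2 (adjusted p = 0.0668), 5-azacitidine replicate 3 (adjusted p = 0.0811) or combination replicate 1 (adjusted p = 0.117). S100a8 lost it in 7 of the 12 fits without 1 library (vehicle replicate 2, PD-901 replicates 2 and 3, 5-azacitidine replicates 2 and 3, combination replicates 1 and 3), with adjusted p values from 0.0532 to 0.194. Without the 4 libraries low in Lyz2, S100a6 passed (-1.49, adjusted p = 0.0476) and S100a8 did not (-1.02, adjusted p = 0.109). The combination comparisons share the 3 combination mice, so their results are not independent of each other.

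Neither drug alone moved an S100 gene past the threshold. With PD-901 against vehicle 0 of the 8 genes were called, as were 0% of all genes (853 of 17475 at an unadjusted p under 0.05, 0 of them S100 members; DESeq2 and limma-voom also called 0 members). S100a6 differed by 0.20 ± 0.21, S100a8 by 0.16 ± 0.24, S100a9 by 0.21 ± 0.24 and S100a11 by 0.05 ± 0.22 on the log2 scale, with edgeR adjusted p values of 0.963 to 0.998 over the 8 genes. With 5-azacitidine against vehicle 0 of the 8 were called, against 0.00572% of all genes higher and 0% lower (2673 genes at an unadjusted p under 0.05, 1 of them a member). Other tools called 613 genes (DESeq2, 291 of them higher) and 2 genes (limma-voom), with 0 members in either case. The changes were 0.23 ± 0.21 for S100a6, 0.34 ± 0.24 for S100a8, 0.18 ± 0.24 for S100a9 and -0.11 ± 0.22 for S100a11. S100a13 had the lowest p, at 0.43 ± 0.20 (unadjusted p = 0.0486, edgeR adjusted p = 0.323). Between 5-azacitidine and PD-901 0 of the 8 genes were called (0% of all genes, 1276 at an unadjusted p under 0.05, 1 of them a member, S100a1; 0 members by DESeq2 or limma-voom).

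The interaction asks whether the combination departs from the sum of the log2 changes of the single agents. It was negative for S100a6 (-1.73 ± 0.30), S100a8 (-1.19 ± 0.34), S100a9 (-1.12 ± 0.34), S100a11 (-0.95 ± 0.31) and S100a13 (-0.81 ± 0.28), -0.02 ± 0.35 for S100a10, and positive for S100a1 (0.15 ± 0.33) and S100a4 (0.47 ± 1.29). For the 5 genes from S100a6 to S100a13 in that order, unadjusted p values were under 0.05, but adjusted over all genes edgeR gave 0.104, 0.210, 0.240, 0.274 and 0.303, so 0 of the 8 were called. Over all genes 0% were called (1871 at an unadjusted p under 0.05). DESeq2 called 3 of the 8 among 288 genes in all, and limma-voom 0 of the 8 among 4 genes. In the joint test for any difference among the 4 groups, S100a6 (edgeR adjusted p = 0.00839) and S100a11 (adjusted p = 0.0261) passed, against 6.96% of all genes, with S100a8 at 0.0567 and S100a9 at 0.0663.

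The 4 most abundant members, S100a6, S100a8, S100a9 and S100a11, were positively correlated with each other over the 12 libraries. By Pearson's r over 12 libraries, the gene nearest to S100a8 among 10423 genes was S100a9 (r = 0.99). Spearman's rho was 0.951, and r was 0.967 over the 9 libraries without the combination. Next came Pglyrp1, a neutrophil granule protein that binds bacterial walls, and Mettl9, both at r = 0.97. By rho (0.965 for each) and by r over the 9 libraries (0.972 and 0.993), Pglyrp1 and Mettl9 stood above S100a9. The nearest to S100a9 after S100a8 were Chp1 and Siglece, an inhibitory receptor of myeloid cells (both r = 0.97). S100a11 was nearest to Pilrb1, Dhrs7 (both r = 0.99) and Gnai2 (r = 0.98). These values share libraries and treatment groups and describe likeness only.

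S100a6 was nearest to Fcgr3, an IgG receptor of myeloid cells (r = 0.98), Actb (r = 0.97) and Retnlg, a mature neutrophil gene (r = 0.96). Over the 9 libraries without the combination these values dropped to 0.86, 0.80 and 0.77, so much of this likeness rests on the low combination libraries. Among the members, S100a11 went with S100a9 (r = 0.94, 0.87 without the combination), S100a6 (0.91, 0.71) and S100a8 (0.90, 0.78). S100a6 went with S100a8 (0.86, 0.66) and S100a9 (0.87, 0.65), so these pairs too were looser without the combination. S100a1, S100a4, S100a10 and S100a13 had other neighbours: M6pr (0.93), Parp11 (0.86), Ms4a8a (0.96) and Mea1 (0.91). S100a10 ran separately from calprotectin, at r = 0.13 with S100a8 and 0.14 with S100a9, or -0.44 and -0.43 without the combination.

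Markers of several marrow cell types changed with the combination, in both directions. Of 10 mature neutrophil markers 9 fell and 0 rose with the combination against vehicle (median -1.67), among them Retnlg (-2.34, edgeR adjusted p = 0.00318), a resistin-like secreted protein, and the collagenase gene Mmp8 (-1.65). Their summed level was 1731 to 3256 CPM with the combination, against 4979 to 11005 with vehicle, 7510.2 to 12116 with PD-901 and 5257 to 7473 with 5-azacitidine. Of 6 secondary granule markers, made at the stage before, edgeR called 0, with 5 at an unadjusted p under 0.05 (median -0.54). Ltf stood at -0.74 and Ngp at -0.58, beside -0.69 for S100a8 and -0.73 for S100a9. Camp changed less, at -0.42, and Chil3 averaged 2873 CPM with the combination against 2988 CPM with vehicle. The 6 markers summed to 21848 to 23838 CPM with the combination and 22219 to 46149 CPM with vehicle. All 5 primary granule markers of early precursors rose (median 0.84), and all 8 erythroid markers rose (median 1.60). Both lists also had medians above 0 with the single agents against vehicle, without a call. With PD-901 and 5-azacitidine these were 0.14 and 1.10 for primary granule markers, and 1.14 and 0.87 for erythroid markers. With the combination, monocyte markers fell in 5 of 9 (median -0.89), macrophage markers in 4 of 7 (median -1.27) and B cell markers in 6 of 7 (median -1.50). With 5-azacitidine against vehicle, monocyte markers had a median of -0.86, mature neutrophil markers -0.14 and the S100 genes 0.21. For the combination against 5-azacitidine these medians were 0.02, -1.24 and -0.79. Secondary granule, macrophage and B cell markers had medians of 0.17, -0.28 and -0.27 with 5-azacitidine against vehicle. They too were lower for the combination against 5-azacitidine, at -0.69, -0.81 and -1.23. With the sex term edgeR called 0 genes in the combination against vehicle (2830 at an unadjusted p under 0.05). The calls of every list against vehicle were thus lost there, those of partners, receptors and transcription factors included. The share of these cell types in the S100 changes was not tested.

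**Figure D4:**
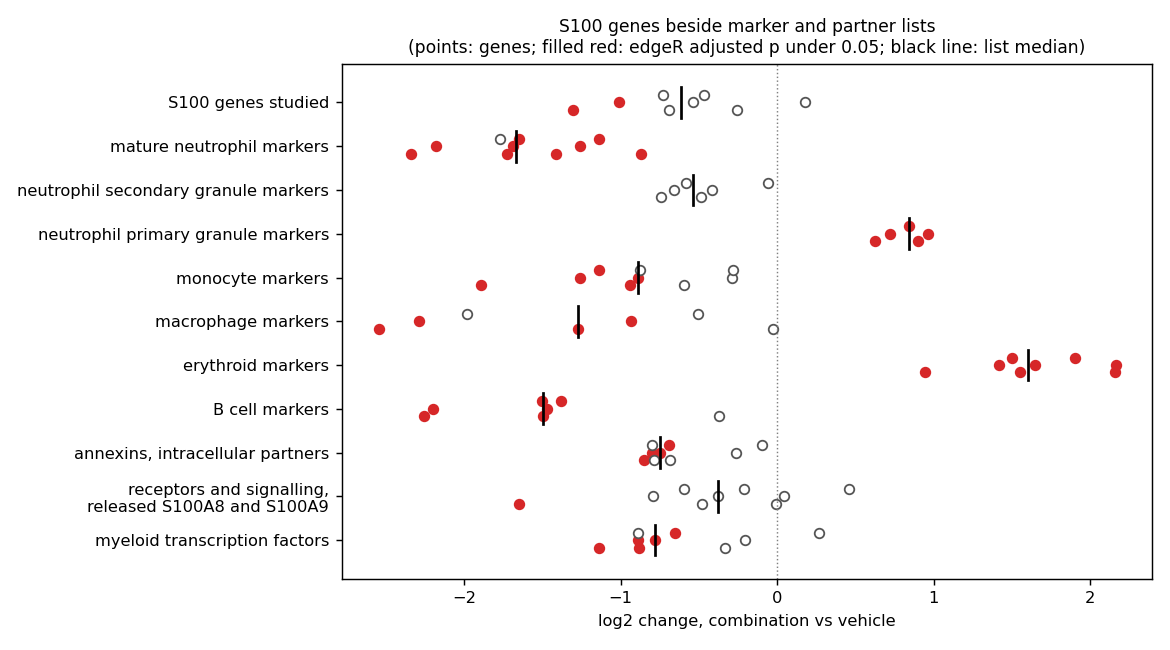
The log2 change of single genes in the combination against vehicle (horizontal axis) for the 8 S100 genes and for lists of cell type markers, partners, receptors and transcription factors. Mature neutrophil markers lie lowest together with the B cell markers (medians -1.67 and -1.50), the S100 genes have a median of -0.61, and the primary granule and erythroid markers lie above 0 (medians 0.84 and 1.60).

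Among the intracellular partners, 4 of 9 genes fell and 0 rose against vehicle (median -0.75). Anxa2, which encodes the annexin that S100A10 binds, fell from 731 ± 94.6 to 405 ± 83.9 CPM (SD, n = 3; log2 change -0.85 ± 0.20, edgeR adjusted p = 0.0125). Myh9, the heavy chain of the myosin that S100A4 binds, fell by 0.75, Anxa11 by 0.80 and Anxa5 by 0.69 on the log2 scale. Anxa2 was also lower than with PD-901 alone (-0.83 ± 0.20, adjusted p = 0.0218), the 1 partner called there.

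Among 9 genes for receptors and signalling of released calprotectin, 1 fell and 0 rose (median -0.38). That gene was Cd14, the TLR4 co-receptor of monocytes and macrophages, which went from 46.3 ± 3.61 to 14.7 ± 2.81 CPM (log2 change -1.65 ± 0.35, edgeR adjusted p = 0.00912). With the single agents Cd14 averaged 26.7 ± 11.9 CPM (PD-901) and 27.9 ± 14.0 CPM (5-azacitidine; SD, n = 3), without a call. For the combination against vehicle, Bsg, another receptor for S100A9, stood at 0.46 (adjusted p = 0.0534), with Irak4 at -0.59 and Myd88 at -0.48. Tlr4 (-0.01) and Ager (-0.38), named for their role rather than by p, were not called.

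Of 9 myeloid transcription factors 5 fell and 0 rose (median -0.78). Spi1, which encodes PU.1, fell from 512 ± 77.4 to 298 ± 36.3 CPM (log2 change -0.78 ± 0.16, edgeR adjusted p = 0.00744). Cebpd, a C/EBP factor, fell from 200.3 ± 43.9 to 109 ± 6.32 CPM (-0.88 ± 0.20, adjusted p = 0.0109), Cebpa fell by 0.65 and Irf8, a regulator of monocyte fate, fell by 1.14. Irf8 averaged 418 CPM with vehicle, 321 with PD-901, 183 with 5-azacitidine and 190 with the combination. Cebpa averaged 200, 157, 165 and 128 CPM in the same order. Spi1 (544 and 524 CPM) and Cebpd (234 and 210 CPM) were not lower with PD-901 and 5-azacitidine than with vehicle. Against PD-901 alone 2 of the 9 fell, Cebpd (-1.10 ± 0.20, adjusted p = 0.00574) and Spi1 (-0.87 ± 0.16, adjusted p = 0.00606). With either single agent against vehicle edgeR called 0 genes of these 3 lists, where 1 to 3 genes a list had an unadjusted p under 0.05.

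The remaining S100 genes were hardly expressed in this marrow. Of 10 other symbols of the family 9 were in the table, with 4 to 88 counts in all over the 12 libraries and at most 31 in any library. S100a7a alone had enough counts to be tested, and it was not called with the combination against vehicle (-0.65, edgeR adjusted p = 0.828). Summed over the 9 genes, their level reached at most 3.82 CPM in any library, against 2671 CPM for S100a8 in its lowest library.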

How the data were processed

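Total RNA of bone marrow cells from 12 mice, 3 separate mice per group, was sequenced in read pairs on a HiSeq4000 after low-input library preparation, per the labels' protocols. The authors deposited 1 table of raw counts by gene and mouse. Its tools, per the submitters' processing notes, were bcl2fastq, STAR 2.7.2a, and featureCounts from Subread 1.6.5, on build mm10. Neither the annotation release nor the strand setting was found in those sources. Testing used edgeR 4.0.16 in R 4.3.3 (filterByExpr, minimum count 10, minimum total 15; TMM factors 0.929 to 1.07; robust quasi-likelihood fit, 1 mean per group over all 12 libraries, 8 residual degrees of freedom). Tests were two-sided, with Benjamini-Hochberg adjustment over 17475 genes and a threshold of 0.05. The SE given with a log2 change was derived from the test, as the size of the change over the square root of its F statistic. CPM and RPKM were computed from the deposited counts with TMM-scaled library sizes over the tested genes, and RPKM used the exon length per gene in the same table. The script was tested on simulated data.

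Totals ranged from 15356919 to 27148190 (median 19657932), and replicates differed beyond counting noise (chi-square over its degrees of freedom, 18.1 to 61.4). The p-values set each change against a spread between mice that was estimated over all 4 groups and moderated across genes. The members and gene lists were chosen with earlier results of these data known. Named genes are all 8 members and up to 4 tested genes per list with the lowest p in the combination against vehicle. For each member they also include the 3 genes with the highest Pearson's r of log2 CPM (prior count 2). These 3 were taken from tested genes with a mean of at least 5 CPM. Lyz2, Xist, Tlr4, Ager, Camp and Chil3 are named besides. Alternatives were other scalings and filters, DESeq2 1.42.0, limma-voom (limma 3.58.1), a sex term, only the groups compared and leaving out libraries. Lists of T and NK cell, megakaryocyte and stromal markers gave 1 of 6, 0 of 5 and 2 of 6 genes lower against vehicle. Protein sequences and an S100a10 promoter were not analysed here. Sequences matched by symbol for 7 of the 8 members.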

Additional observations from a re-analysis of the deposited data

How the results depend on the processing

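No paired analysis was possible because the labels number the mice only in accession order and tie no mouse of a group to one of another. Of 1320 comparisons of a member's result with an alternative, 1235 stayed on the same side of the threshold. Of these, 57 had the opposite sign, all of values not called, and no called value changed sign. The total of 1320 includes many results that were not called to begin with. Among called results, S100a8 lost its call in 11 of 21 settings against 5-azacitidine and in 6 of 21 against PD-901. S100a6 against PD-901 lost its call in 0 of 21. S100a6, S100a8, S100a9, S100a11 and S100a13 kept their sign in all 21 settings for the combination against each other group. Members called lower against vehicle numbered 2, 4 without the low-count filter, 4 with DESeq2, 0 with the sex term and 1 to 4 without single libraries. Against PD-901 they numbered 4, 2 without the 4 libraries low in Lyz2 (an alternative chosen after seeing the data) and 1 to 4 without single libraries. Against 5-azacitidine they numbered 2, 5 without the filter or with DESeq2, 4 with the sex term, 1 with total counts, limma-voom, only the groups compared or without the 4 libraries, and 0 to 4 without single libraries. Lower calls over all genes in that comparison went from 187 to 704 without the filter, 760 with DESeq2 and 167 with the sex term. The interaction called 0, 4 without the filter, 3 with DESeq2 and 0 to 1 without single libraries. The joint test called 2, 4 without the filter or with DESeq2, 1 with the sex term, 0 without the 4 libraries and 0 to 4 without single libraries. Apart from the fits with fewer samples, the cause was not tested. Scaling by total counts shifted the median of all genes by 0.13 against 5-azacitidine and 0.14 in the interaction.

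Over all genes the combination gave 1010 higher and 1393 lower calls against vehicle (1455 and 1953 with DESeq2, 0 and 0 with the sex term). S100a4 had 1 to 69 counts per library, and whether depth or the spread between mice limits it was not tested.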
